A study of Mus musculus with 6 samples.

Results

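The genes described here are regulators of chromatin and DNA methylation. They comprise the subunits of Polycomb repressive complexes PRC2 and PRC1, the DNA methyltransferases and TET enzymes, and histone demethylases, deacetylases, acetyltransferases, methyltransferases and nucleosome remodellers. They were chosen by name, as a list of 39 genes, and the rule uses no measured value. Probe sets of 38 of them were present among 13267 genes measured above the low-value filter. Ncor1 was not analysed here. The 38 genes had 98 probe sets, of which 92 passed the filter. Each gene had at least 1 probe set that passed. 30 genes had several such probe sets and 8 had 1. The probe set with the highest mean signal represents its gene unless another is named.

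RNA was measured in granulocyte-monocyte progenitors (GMPs), the bone marrow precursors of neutrophils and monocytes, from mice of the BL6 strain. Cells were sorted as negative for lineage markers, IL-7R and Sca1 and positive for Kit and CD34, with high Fc gamma receptor, and 10 ng of total RNA per sample was labelled for a whole-transcriptome Affymetrix array. 3 genotypes were compared with 2 arrays each: wild type (WT), a knockout of the transcription factor IRF8 (IRF8KO), and a knockout of IRF8 together with its relative IRF4 (IRF4/8DKO). The WT mice were a male aged 12 weeks (replicate 1) and a female aged 19 weeks (replicate 2). The IRF8KO mice were a female aged 12 weeks and a male aged 22 weeks, and the IRF4/8DKO mice were a male and a female, both aged 16 weeks. The labels do not say how the alleles were made. The signals of the targeted genes did not show the deletions. The representative of Irf8 read 2588 and 3052 in WT, 3811 and 2602 in IRF8KO, and 2611 and 4778 in IRF4/8DKO, and a dimmer one gave 507 and 704 in WT, 1333 and 1131 in IRF8KO, and 934 and 1899.8 in IRF4/8DKO. The representative of Irf4 gave 32.1 and 23.4 in WT, 13.8 and 7.66 in IRF8KO, and 66.0 and 54.6 in IRF4/8DKO, so that it was highest in the genotype labelled as lacking IRF4. The other Irf4 probe set, also dim, overlapped between the genotypes. The labels do not place the probes inside or outside the deletions, so these values check nothing, and every direction given below rests on the genotypes as labelled.

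Polycomb proteins keep developmental genes silent. PRC2 places a repressive methyl mark on histone H3 through its catalytic subunit Ezh2 or Ezh1, and PRC1 attaches ubiquitin to histone H2A and compacts the marked chromatin. DNA methyltransferases add methyl groups to CpG dinucleotides and TET enzymes start their removal. In blood, genes of both systems control self-renewal and differentiation of stem and progenitor cells, and several are recurrently mutated in myeloid neoplasms.

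No member passed the test in any comparison, and most differed from WT by less than 2-fold. With limma and an adjusted p under 0.05, 9 of 29783 probe sets (0.0302%) were called between IRF8KO and WT, and none of the 38 members was among them. Between IRF4/8DKO and WT 89 probe sets were called (0.299%), again with 0 of 38 members. The comparison of IRF4/8DKO with IRF8KO called 0.0% of probe sets and 0 members by limma, while 2538 probe sets had an unadjusted p under 0.05. The mean of both knockouts against WT called 179 probe sets (0.601%) and 0 members. At background rates this low, a list of 38 genes would hold few calls or none, so the absence of calls does not set the members apart. Lowest adjusted p-values among the members' representatives were 0.370, 0.409, 0.559 and 0.366 in the 4 comparisons. With 2 mice per genotype, the p-values measure the spread between these mice only, and the comparisons share arrays.

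At an unadjusted limma p under 0.05, 1 of 38 members passed between IRF8KO and WT, against 12.0% of all genes. For IRF4/8DKO against WT it was 3 of 38, against 8.0%. For IRF4/8DKO against IRF8KO it was 4 of 38, against 7.79%, and for the mean of both knockouts it was 1 of 38, against 10.2%. The members' shares were 2.63%, 7.89%, 10.5% and 2.63%, so none stood far above its background. The genes behind these counts were Suz12, Ezh1, Dnmt3b, Kdm5b and Phc2.

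Differences from WT were also no larger than over all genes. The median absolute log2 fold change of the 38 members was 0.32 in IRF8KO and 0.235 in IRF4/8DKO, beside 0.392 and 0.317 over all genes. With the sign kept, opposite directions cancel. The median log2 fold change was then 0.00 in IRF8KO against WT and -0.05 in IRF4/8DKO against WT, beside 0.04 and 0.03 over all genes. Between IRF4/8DKO and IRF8KO the members' median was -0.13 and that of all genes -0.01. The number of members above and below WT was 19 and 19 in IRF8KO, and 16 and 22 in IRF4/8DKO. Only 2 of 38 members differed from WT by more than 2-fold in IRF8KO and 3 of 38 in IRF4/8DKO, where all genes gave 13.1% and 9.83%. The 95% confidence interval of the fold change lay within 2-fold in either direction for 11 members in IRF8KO against WT and for 16 in IRF4/8DKO against WT. These were 28.95% and 42.11% of the members, against 16.59% and 19.44% of all genes. For the other members a 2-fold difference lies inside the interval, and these arrays do not show whether their level differed.

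**Figure D1:**
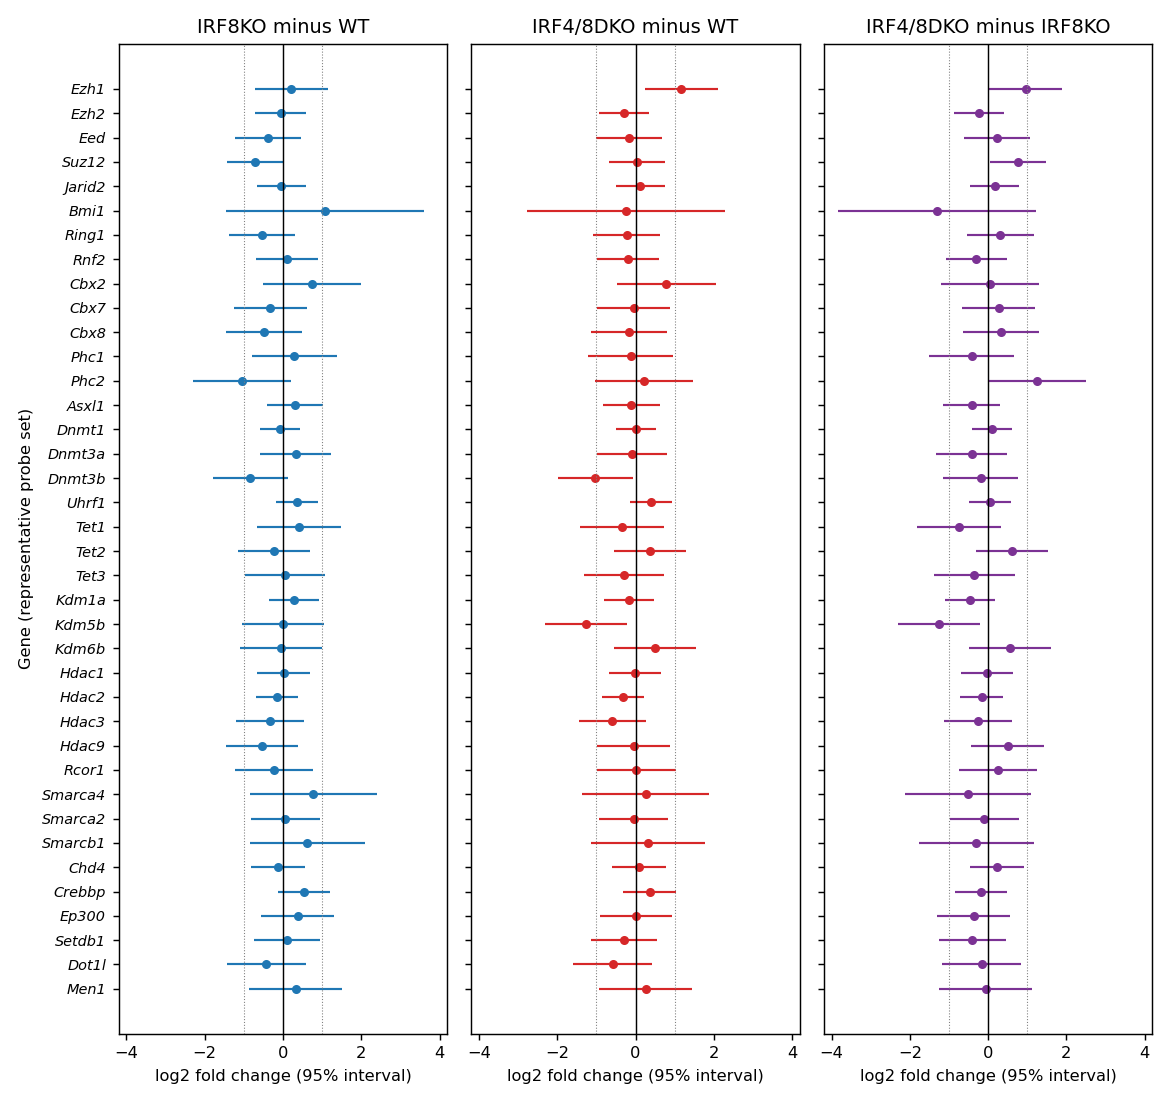
Log2 fold changes of the 38 measured members in 3 panels, each knockout minus WT and the double minus the single knockout (horizontal axis, limma, with 95% confidence intervals as bars), ordered by role. Most points lie within 1 of zero and most intervals cross it; Kdm5b, Dnmt3b and Ezh1 have intervals that exclude zero in IRF4/8DKO against WT, before any adjustment for multiple tests.

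**Figure D2:**
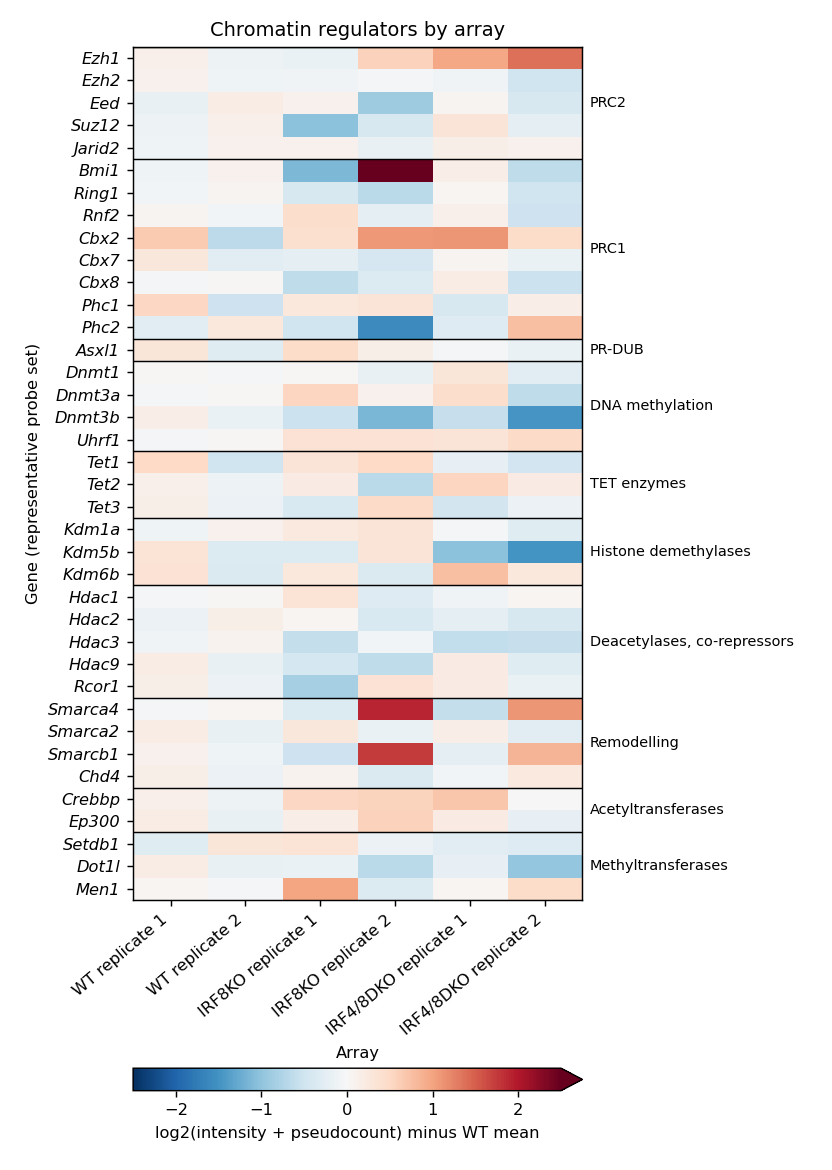
Heat map of each member's representative probe set on each of the 6 arrays, as the log2 value minus the mean of the 2 WT arrays. The colour scale ends at 2.5, and Bmi1 in IRF8KO replicate 2 lies beyond it; rows for Smarca4, Smarcb1 and Bmi1 differ strongly between the 2 mice of a knockout.

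Promoter sequences are shown for Kdm5b, Dnmt3b and Ezh1, the members furthest from WT in IRF4/8DKO, because many regulators of this kind have CpG-rich promoters and because IRF8 and IRF4 bind composite or repeated GAAA elements. Each run is the 250 bases before the transcription start, 5′ to 3′ on the gene's strand, from RefSeq on GRCm38.p6, with CpG dinucleotides in capitals. Kdm5b is at chr1:134559928-134560177 on the plus strand, Dnmt3b at chr2:153649199-153649448 on the plus strand and Ezh1 at chr11:101226464-101226713 on the minus strand.
Kdm5b: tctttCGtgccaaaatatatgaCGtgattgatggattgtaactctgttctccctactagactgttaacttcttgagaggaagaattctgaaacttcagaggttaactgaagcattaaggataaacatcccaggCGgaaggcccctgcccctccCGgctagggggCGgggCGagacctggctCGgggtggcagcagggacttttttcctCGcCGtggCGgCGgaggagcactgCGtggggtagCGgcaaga
Dnmt3b: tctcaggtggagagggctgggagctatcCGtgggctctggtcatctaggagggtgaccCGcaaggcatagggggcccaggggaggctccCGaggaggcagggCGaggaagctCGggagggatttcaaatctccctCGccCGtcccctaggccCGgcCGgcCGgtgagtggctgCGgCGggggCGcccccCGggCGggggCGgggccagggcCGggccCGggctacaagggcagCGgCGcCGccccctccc
Ezh1: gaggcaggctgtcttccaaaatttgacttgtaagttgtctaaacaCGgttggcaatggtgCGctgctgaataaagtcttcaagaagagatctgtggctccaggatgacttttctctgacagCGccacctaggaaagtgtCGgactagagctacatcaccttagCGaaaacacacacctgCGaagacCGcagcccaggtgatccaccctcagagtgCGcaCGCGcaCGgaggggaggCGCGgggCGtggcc

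The Dnmt3b run is the most GC-rich of these, with 75.2% G or C. Kdm5b has 54.4% and Ezh1 55.2%. RefSeq listed 48 promoter windows for 35 of the 39 genes, each 300 bases long and reaching 50 bases past the start. Their median CpG number was 24.0, against 7.0 over all 32841 windows, and 37 of 48 (77.08%) had an observed over expected CpG ratio above 0.6, against 35.79% of all windows. The core of an interferon-stimulated response element, GAAA and GAAA with any 2 bases (NN) between, was searched on both strands and was in 0 of the 48 windows and in 3.44% of all. The composite of an ETS and an IRF element was searched as GGAA, NN, GAAA and as GAAA, NN, GGAA, also on both strands, and was in 0 of 48, against 2.72% and 2.80% of all windows. The patterns can overlap one another, and 8.36% of all windows held at least 1 of them. At the share of each single pattern, 48 windows would hold few matches or none. For any of the patterns it was 0 of 48 against 8.36%, a difference that was not tested. The absence is therefore not read as a trait of the members. The member windows also had a higher median GC content, 65.0% against 52.67%, and some windows of the same gene overlap. These counts describe letters within 300 bases and say nothing about binding elsewhere.

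Among PRC2 subunits, Ezh1 read higher in IRF4/8DKO than in the other genotypes, while Ezh2 differed little. Ezh1, the methyltransferase that can replace Ezh2 and prevails in less proliferative cells, had intensities of 542 and 456 in WT, 442 and 749 in IRF8KO, and 976 and 1307 in IRF4/8DKO. Both IRF4/8DKO arrays lay above all 4 others. The log2 fold change against WT was 1.17 ± 0.41 (SE, n = 2 against 2; 2.25-fold; limma adjusted p = 0.409), and against IRF8KO it was 0.96 ± 0.41 (adjusted p = 0.580). A different Ezh1 probe set gave 31.1 and 70.9 in WT, 11.4 and 32.5 in IRF8KO, and 87.7 and 112 in IRF4/8DKO, again with the double knockout on top. The third probe set, dim throughout, gave overlapping groups, with 24.4 and 80.2 in IRF4/8DKO against 35.1 and 22.3 in WT.

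Ezh2, the main catalytic subunit of dividing progenitors, read 2256 and 1966 in WT, 1979 and 2053 in IRF8KO, and 1986 and 1488 in IRF4/8DKO. Its log2 fold change was -0.06 in IRF8KO, with a 95% interval from -0.71 to 0.58, and -0.29 in IRF4/8DKO, from -0.94 to 0.35. Any shift of Ezh2 beyond 2-fold therefore lies outside both intervals. Jarid2, which recruits PRC2 to target genes, lay between 1643 and 2069 on all 6 arrays, while its dimmest probe set lay above WT in both knockouts, by 0.51 and 0.78 in log2. Eed, the subunit that reads the repressive mark, gave 2216 and 2899 in WT, 2736 and 1367 in IRF8KO, and 2647 and 1929 in IRF4/8DKO. The genotypes overlapped for Eed, since the IRF8KO arrays alone differed by more than the genotypes did.

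Suz12, the structural core of PRC2, was the single member below an unadjusted p of 0.05 between IRF8KO and WT, but its probe sets disagreed. The representative read 2753 and 3269 in WT, 1459 and 2269 in IRF8KO, and 3734 and 2534 in IRF4/8DKO. IRF8KO lay below both other genotypes without overlap, at a log2 fold change of -0.72 ± 0.32 against WT (limma adjusted p = 0.370). IRF4/8DKO against IRF8KO gave 0.75 ± 0.32 (adjusted p = 0.575). A further probe set followed it closely, with 2147 and 2373 in WT, 1140.1 and 1669 in IRF8KO, and 2868 and 1949 in IRF4/8DKO. Another went the other way, with 944 and 1059.8 in WT, 842 and 1525 in IRF8KO, and 744 and 809.7 in IRF4/8DKO. Of the 6 probe sets, 5 had a lower mean log2 value in IRF8KO than in WT, and they probe one gene and are not replicates of the genotype.

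PRC1 subunits showed no shared direction: 4 of 8 lay above WT in IRF8KO and 2 of 8 in IRF4/8DKO, none past the test. Phc2, a Polyhomeotic protein that lets PRC1 assemblies polymerise, read 338 and 496 in WT, 288 and 129 in IRF8KO, and 326 and 697 in IRF4/8DKO. The 2 knockout genotypes were separate from each other, at a log2 fold change of 1.26 ± 0.55 for IRF4/8DKO against IRF8KO (2.40-fold; limma adjusted p = 0.584). WT overlapped IRF4/8DKO. The other Phc2 probe set gave 286 and 329.9 in WT, 307 and 195 in IRF8KO, and 360.2 and 635 in IRF4/8DKO, separate in the same order. In both knockouts the replicate arrays of Phc2 were more than 2-fold apart on the representative.

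Cbx2, a chromodomain subunit that binds the PRC2 mark, read 219 and 82.7 in WT, 182 and 297 in IRF8KO, and 305 and 192 in IRF4/8DKO. The WT mice differed by more than 2-fold and the genotypes overlapped. Ring1, one of the ubiquitin ligases of the complex, read 863 and 941 in WT, 679 and 561 in IRF8KO, and 928 and 634 in IRF4/8DKO, with IRF8KO below WT without overlap (-0.54 ± 0.38 on the log2 scale). The partner ligase Rnf2 lay between 1324 and 2589, with overlapping genotypes. A dimmer Rnf2 probe set lay below WT in IRF4/8DKO without overlap, with 608 and 452 against 910 and 775. Asxl1, partner of the deubiquitinase that removes the PRC1 mark, read 1922 and 1276 in WT, 2158 and 1744 in IRF8KO, and 1508 and 1398 in IRF4/8DKO. Its IRF8KO arrays lay above its IRF4/8DKO arrays, by a difference of 0.42 in log2 with an SE of 0.32, which is close to the spread between replicates. Another Asxl1 probe set separated in the reverse order, with 552 and 459 in WT, 292 and 288 in IRF8KO, and 393 and 353 in IRF4/8DKO, and the last one overlapped throughout.

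Bmi1, the PRC1 subunit best known for stem cell self-renewal, gave a value that a single mouse decided. The representative had intensities of 444 and 518 in WT, 215 and 4643 in IRF8KO, and 536 and 304 in IRF4/8DKO, so the 2 IRF8KO mice were 20.6-fold apart. Its log2 fold change in IRF8KO against WT was 1.07 ± 1.12 with both mice, 3.25 without IRF8KO replicate 1 (limma adjusted p = 0.0102) and -1.12 without IRF8KO replicate 2 (adjusted p = 0.328). The other Bmi1 probe set gave 387 and 328 in WT, 225 and 100.1 in IRF8KO, and 410.3 and 189 in IRF4/8DKO, with no such peak in IRF8KO replicate 2. On that probe set IRF8KO lay below WT without overlap, at -1.19 ± 0.54 in log2 (limma adjusted p = 0.385).

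In the DNA methylation machinery, Dnmt3b lay below WT in both knockouts, and Dnmt1 differed little. Dnmt3b, an enzyme of de novo methylation, read 1724 and 1353 in WT, 1046 and 691 in IRF8KO, and 1024 and 540.2 in IRF4/8DKO. All 4 knockout arrays lay below both WT arrays. The mean of both knockouts against WT was -0.93 ± 0.36 in log2 (SE; 95% interval -1.76 to -0.10; 1.91-fold lower; limma adjusted p = 0.366). A second probe set, with 352 and 414 in WT, 224 and 126 in IRF8KO, and 192 and 159 in IRF4/8DKO, gave -1.11 ± 0.39 with an adjusted p of 0.305. The knockouts did not separate from each other: IRF4/8DKO against IRF8KO was -0.19 ± 0.42 on the representative.

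Dnmt1, which copies methylation to the new strand after replication, read 5721 and 5542 in WT, 5726 and 4973 in IRF8KO, and 6949 and 4679 in IRF4/8DKO. Its 95% intervals against WT ran from -0.59 to 0.43 in IRF8KO and from -0.49 to 0.53 in IRF4/8DKO. Uhrf1, the protein that brings Dnmt1 to half-methylated DNA, read 2217 and 2308 in WT, 2902 and 2909.6 in IRF8KO, and 2827 and 3174 in IRF4/8DKO. The knockouts lay above WT without overlap by 0.38 ± 0.20 in log2 (adjusted p = 0.530), but its other probe set went the opposite way in IRF8KO, with 766 and 508 against 966 and 1095 in WT. Dnmt3a, the other de novo enzyme and a frequent target of mutation in clonal haematopoiesis, read 1406 and 1477 in WT, 2084 and 1559 in IRF8KO, and 1964 and 921 in IRF4/8DKO. Its IRF8KO arrays lay above WT, while the IRF4/8DKO mice were on either side of WT and were more than 2-fold apart. Its 4 other probe sets had the opposite sign in IRF8KO against WT, between -0.81 and -0.05 in log2, and 1 of them was separated from WT.

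The TET enzymes, which oxidise methylcytosine, overlapped between IRF8KO and WT on the representatives of all 3 genes. Tet2, the family member most often mutated in myeloid disease, read 937 and 786 in WT, 987 and 531 in IRF8KO, and 1253 and 995 in IRF4/8DKO. IRF4/8DKO lay above both WT arrays and above both IRF8KO arrays by small margins, at 0.62 ± 0.41 in log2 against IRF8KO (limma adjusted p = 0.691). Tet1 read 274 and 133 in WT, 242 and 273 in IRF8KO, and 164 and 135 in IRF4/8DKO, and Tet3 read 129 and 105 in WT, 87.6 and 165 in IRF8KO, and 82.3 and 104 in IRF4/8DKO. Tet1 overlapped in every comparison with WT, and the Tet3 arrays of IRF4/8DKO lay just below those of WT, by less than the SE of their difference. Dimmer probe sets of Tet1 and Tet2 did lie below WT in IRF8KO without overlap, that of Tet1 with 148 and 115 against 175 and 250.5, and that of Tet2 with 23.8 and 82.3 against 123 and 109.

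Kdm5b, a demethylase that removes the activating methyl mark at promoters, was the member with the largest difference between IRF4/8DKO and WT. Its representative read 639 and 393 in WT, 395 and 628 in IRF8KO, and 240.0 and 171 in IRF4/8DKO. Both IRF4/8DKO arrays lay below the other 4, while IRF8KO and WT covered the same range. The log2 fold change was -1.26 ± 0.46 against WT (2.40-fold lower; limma adjusted p = 0.436) and -1.25 ± 0.46 against IRF8KO (adjusted p = 0.559). A second probe set separated further, with 594 and 487 in WT, 553 and 458 in IRF8KO, and 179 and 179 in IRF4/8DKO, at -1.53 ± 0.40 against WT (adjusted p = 0.226). The fourth, dimmer set gave 73.9 and 44.4 in WT, 76.2 and 17.8 in IRF8KO, and 16.4 and 15.6 in IRF4/8DKO. In all 4 Kdm5b probe sets the mean log2 value of IRF4/8DKO lay below both other genotypes, and in 3 of 4 without overlap.

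**Figure D3:**
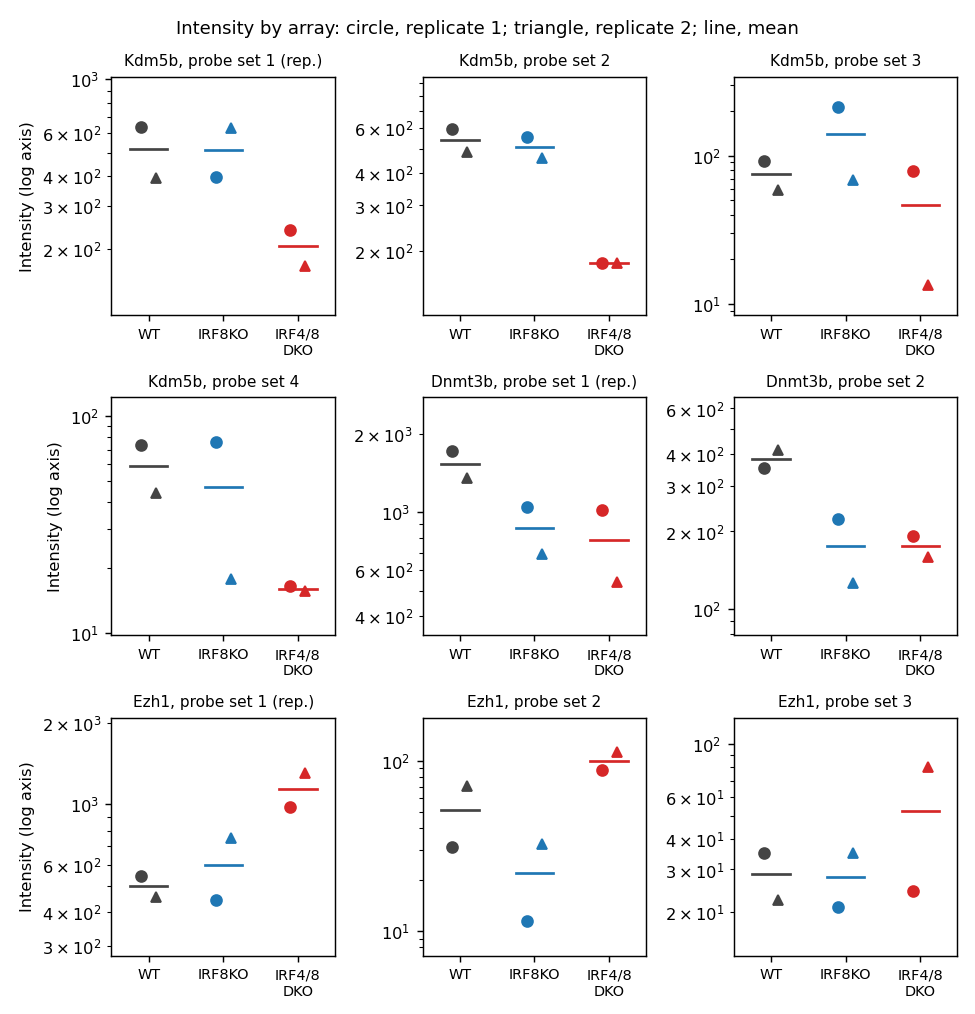
Intensity of every probe set of Kdm5b, Dnmt3b and Ezh1 that passed the filter on each of the 6 arrays (log axis), by genotype, with a line at the mean of the 2 arrays. Representative Kdm5b values are 240.0 and 171 in IRF4/8DKO against 393 to 639 in WT, Dnmt3b lies lower in both knockouts, and Ezh1 lies higher in IRF4/8DKO.

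The cells sorted as GMPs also differed in markers of neighbouring lineages, and in bulk samples fewer cells of a type and less RNA per cell cannot be told apart. The summed signal of 9 eosinophil, basophil and mast cell markers was 13974.9 and 9406.9 in WT, 5746.2 and 3119.6 in IRF8KO, and 1665.5 and 1853.7 in IRF4/8DKO. All 4 knockout arrays lay below WT in that sum, as they did for Dnmt3b, and IRF4/8DKO lay lowest, as it did for Kdm5b. Other parts of the patterns differed. In IRF8KO, where the sum lay below WT, Kdm5b overlapped WT (-0.01 in log2). Dnmt3b overlapped between the knockouts, where the sum did not. Megakaryocyte markers, 5 genes above the filter, had IRF4/8DKO lowest too, with 83.8 and 115.3 against 4759.2 and 1161.3 in WT and 1683.5 and 581.9 in IRF8KO. Erythroid markers, 8 genes above the filter, summed to 9182.6 and 6959.8 in WT and to between 4022.4 and 6220.0 in the knockouts. Stem cell markers, 7 genes, summed to 4298.5 and 1957.4 in WT and to between 212.2 and 541.1 in the knockouts. Neutrophil maturation markers, 10 genes, tended the other way, with 13191.5 and 33692.9 in WT, 34114.6 and 59646.3 in IRF8KO, and 29073.8 and 56975.3 in IRF4/8DKO. The WT mice were far apart in this sum, and WT overlapped IRF4/8DKO. B-lymphoid markers, 5 genes above the filter, summed to 733.0 and 685.4 in WT and to between 1199.0 and 1948.7 in the knockouts. Of these, 1 lay below WT in IRF8KO and 2 in IRF4/8DKO. Monocyte markers summed to 7429.6 and 8541.0 in WT and to between 15979.8 and 24391.0 in the knockouts. Of these 9 monocyte genes 7 lay above WT in both knockouts and 2, Klf4 and Ly86, below, with Ly86 called lower in each (-5.40 and -5.13 in log2). Limma also called 4 monocyte genes and 1 neutrophil gene higher in IRF4/8DKO against WT. In the same comparison 3 eosinophil, basophil and mast cell genes and 2 megakaryocyte genes were called lower. In the mean of both knockouts against WT, 2 stem cell and 2 erythroid genes were among those called lower. No marker probe set was at 0, and the part of these cells in the differences of Kdm5b, Dnmt3b and Ezh1 was not tested. The 25 cell cycle genes summed to between 79620.2 and 85515.8, but single genes lay on both sides of WT, from -1.15 to 1.54 in log2 in IRF8KO and from -0.62 to 0.65 in IRF4/8DKO. None of these cell cycle genes was called by limma. At an unadjusted p under 0.05 there were 4 in IRF8KO (16.0%, against 12.0% of all genes) and 1 in IRF4/8DKO (4.0%, against 8.0%). The part of the cell cycle genes was not tested either.

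The other demethylases differed less. Kdm1a, the flavin-dependent demethylase of the CoREST complex, read 1591 and 1858 in WT, 2048 and 2140.2 in IRF8KO, and 1670.3 and 1388 in IRF4/8DKO. IRF8KO lay above both other genotypes without overlap, and the log2 fold change of IRF4/8DKO against IRF8KO was -0.46 ± 0.28. The other Kdm1a probe set had the opposite sign, with 894 and 1173 in WT, 715 and 922 in IRF8KO, and 889 and 876 in IRF4/8DKO, where IRF8KO overlapped both. Kdm6b, which removes the PRC2 mark, read 472 and 286 in WT, 446 and 282 in IRF8KO, and 625 and 442 in IRF4/8DKO, with overlap throughout on the representative. Its other kept probe sets, all dimmer, lay below WT in IRF4/8DKO without overlap. They gave 45.8 and 36.2 against 69.8 and 76.8 in WT, and 22.1 and 25.5 against 28.6 and 36.4.

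None of the 5 measured deacetylases and corepressors passed the test, and the 95% interval lay within 2-fold for 2 of them in IRF8KO and for 3 in IRF4/8DKO. Hdac3, the deacetylase of the NCoR complex, read 781 and 886 in WT, 544 and 794 in IRF8KO, and 542 and 552 in IRF4/8DKO, so that IRF4/8DKO lay below WT (-0.59 ± 0.38 in log2; limma adjusted p = 0.730). Hdac2, a subunit of the Sin3, NuRD and CoREST complexes, read 3939 and 4881 in WT, 4560.3 and 3388 in IRF8KO, and 3704 and 3303 in IRF4/8DKO, with a fold change of -0.33 ± 0.24 in log2 for IRF4/8DKO. Hdac1, its close relative, lay between 1854 and 2958, and its mean log2 value in IRF8KO differed from WT by 0.02 ± 0.29. Hdac9, a class II deacetylase, read 72.5 and 54.5 in WT, 43.4 and 36.5 in IRF8KO, and 74.1 and 49.0 in IRF4/8DKO. Only its IRF8KO arrays lay apart from WT, by a fold change of -0.55 ± 0.41 in log2.

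The remodelling ATPase Smarca4 and the core subunit Smarcb1, both of the SWI/SNF complex, were variable between mice of one genotype. Smarca4 read 1874 and 2029.6 in WT, 1527 and 7331 in IRF8KO, and 1295 and 4189.8 in IRF4/8DKO. Smarcb1 followed the same arrays, with 1964 and 1711 in WT, 1283 and 6191 in IRF8KO, and 1569 and 3327 in IRF4/8DKO. Replicate 2 was the higher array of each knockout. Their other kept probe sets also had the higher value in replicate 2 of each knockout, but with smaller gaps. For Smarca4 these were 293 and 503 in IRF8KO and 439 and 728 in IRF4/8DKO, against 526 and 663 in WT. For Smarcb1 they were 887 and 986 in IRF8KO and 838 and 1336 in IRF4/8DKO, against 1116 and 995 in WT. The same replicate 2 arrays had the highest summed neutrophil markers, 59646.3 in IRF8KO and 56975.3 in IRF4/8DKO. WT replicate 2 also had the higher sum of the WT arrays, 33692.9 against 13191.5. There Smarca4 read 2029.6 against 1874 in WT replicate 1, and Smarcb1 1711 against 1964. A link between these genes and the neutrophil markers was not tested. Smarca2, the alternative ATPase, lay between 584 and 847. Its other probe set lay above WT in both knockouts without overlap, with 556 and 538 in IRF8KO and 504 and 579 in IRF4/8DKO, against 405 and 439. Chd4, the ATPase of NuRD, read 2097 and 1688 in WT, 1997 and 1464 in IRF8KO, and 1796 and 2231 in IRF4/8DKO. The representative of Chd4 overlapped throughout, while its 2 other probe sets lay below WT in IRF8KO without overlap, by -0.71 and -0.56 in log2.

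**Figure D4:**
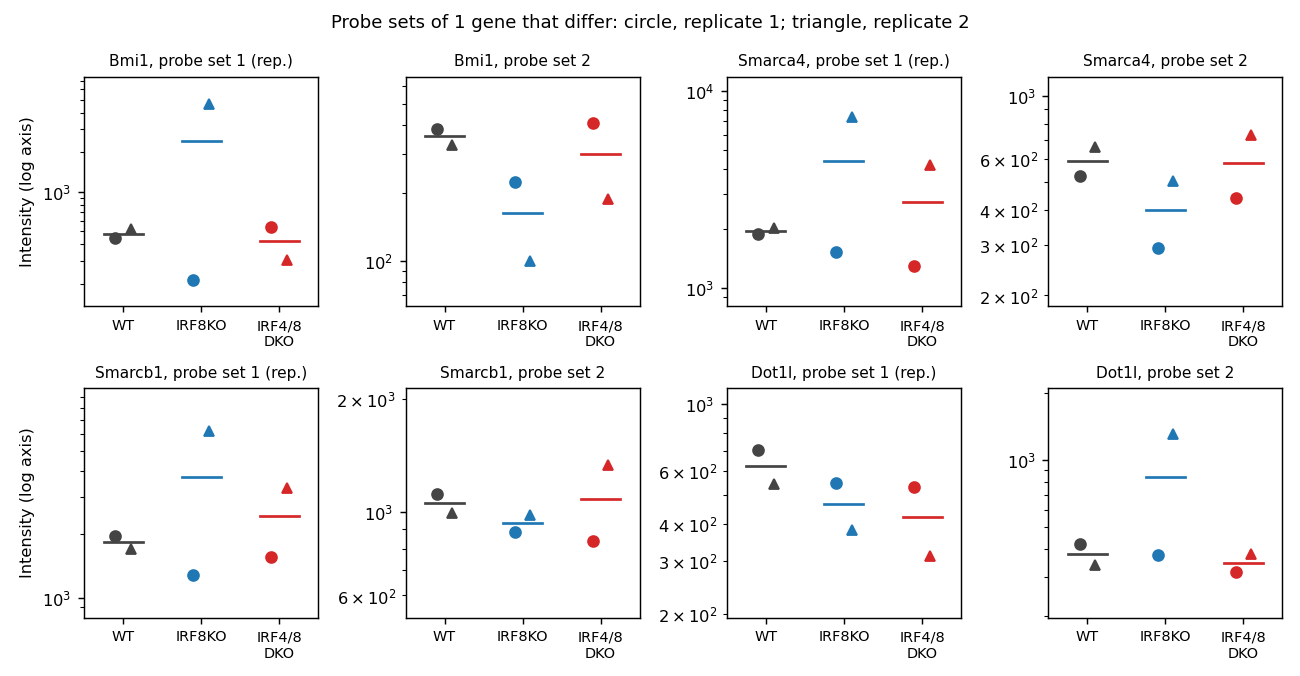
Intensity on each of the 6 arrays (log axis) for Bmi1, Smarca4, Smarcb1 and Dot1l, whose probe sets differ in the size or the direction of the gap between the 2 mice of a knockout, with a line at the mean of the 2 arrays. The representative of Bmi1 reads 4643 in IRF8KO replicate 2 and 215 in replicate 1, while its other probe set reads 100.1 and 225.

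Of the acetyltransferases, Crebbp (CBP) read 2124 and 1796 in WT, 2810.1 and 2871 in IRF8KO, and 3169 and 1978 in IRF4/8DKO. IRF8KO lay above WT without overlap, by 0.54 ± 0.30 in log2 (limma adjusted p = 0.469), and a second probe set, with 1189 and 585 in IRF8KO against 522 and 241 in WT, gave 1.21 ± 0.52 (adjusted p = 0.361). The remaining Crebbp probe sets overlapped between IRF8KO and WT, at 0.05 and 0.27 in log2, the first of them with 1167 and 1118 against 1172 and 1042. Ep300, the paralogue, read 520.1 and 401 in WT, 515 and 689 in IRF8KO, and 531 and 396 in IRF4/8DKO, with overlap. Among the methyltransferases, Dot1l, which methylates histone H3 within transcribed genes, read 704 and 542 in WT, 547 and 382 in IRF8KO, and 532 and 312 in IRF4/8DKO. IRF4/8DKO lay below WT by -0.59 ± 0.44 in log2. Setdb1, a silencer of repeats, read 820.3 and 1251 in WT, 1292 and 914 in IRF8KO, and 831 and 811 in IRF4/8DKO. Its second probe set lay below WT in both knockouts, with 423 and 531 in WT, 180 and 326 in IRF8KO, and 407 and 370.5 in IRF4/8DKO, where the representative overlapped. The dimmest Setdb1 probe set lay below WT without overlap in IRF4/8DKO only, with 98.2 and 85.3 against 164 and 117. Men1, a subunit of an MLL complex, read 157 and 144 in WT, 309 and 116 in IRF8KO, and 156 and 212 in IRF4/8DKO, and its IRF8KO mice were more than 2-fold apart. The dimmest Men1 probe set lay above WT in both knockouts without overlap. It gave 26.9 and 32.8 in WT, 49.6 and 45.0 in IRF8KO, and 45.0 and 39.8 in IRF4/8DKO.

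The remaining measured members were Cbx7, Cbx8, Phc1 and Rcor1, and some of their probe sets disagreed. On the representatives Cbx7 lay between 49.1 and 86.7 and Cbx8 between 58.1 and 111, against array medians of 34.1 to 45.27 over all probe sets. Another Cbx7 probe set was highest in IRF8KO, with 80.5 and 70.2 against 45.5 and 44.5 in WT and 44.6 and 41.25 in IRF4/8DKO. The Cbx8 representative lay below WT in IRF8KO without overlap, with 58.1 and 73.0 against 93.9 and 97.6. Its other probe set lay above WT in IRF4/8DKO, with 55.7 and 122 against 42.7 and 54.5. Phc1 ranged from 263 to 542, both extremes being WT mice. Rcor1, the scaffold of CoREST, read 1302 and 1049 in WT, 650.0 and 1515 in IRF8KO, and 1352 and 1045 in IRF4/8DKO. In IRF8KO all 3 of its probe sets were more than 2-fold higher in replicate 2 than in replicate 1, so the variation was not confined to a probe set. Between IRF4/8DKO and WT a dimmer Rcor1 probe set lay lower without overlap, with 313 and 335 against 431 and 549. The dimmest one lay higher, with 277 and 336 against 173 and 261.

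Members differed more between mice of a knockout than between WT mice, as genes in general did. More than 2-fold apart between replicate arrays were 2 of 38 members in WT (5.26%, against 5.99% of genes), 6 of 38 in IRF8KO (15.8%, against 22.4%) and 4 of 38 in IRF4/8DKO (10.5%, against 15.2%). Probe sets of the same gene often gave opposite directions: all kept probe sets agreed in sign for 9 of 30 members in IRF8KO against WT, where 47.55% of 6271 genes did. For IRF4/8DKO against WT 19 of 30 members agreed (63.33%, against 54.92%).

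Other chromatin genes of the same pathways gave no call either. Of 131 such genes listed, 121 were measured, and limma called 0 in each of the 4 comparisons. At an unadjusted p under 0.05, 4 lay above and 4 below WT in IRF8KO, and 4 above and 2 below in IRF4/8DKO. These were 6.61% and 4.96% of the 121, against 12.0% and 8.0% of all genes. Chd7, a remodeller of enhancers, had the lowest p, with 339 and 586 in WT, 2025 and 1352 in IRF8KO, and 1480 and 1152 in IRF4/8DKO. Both knockouts lay above WT without overlap, by 1.70 in log2 for their mean (adjusted p = 0.0833), and its other probe set gave 1.41. Kdm7a, a demethylase of repressive marks, read 379 and 321 in WT, 330 and 447 in IRF8KO, and 938 and 1933 in IRF4/8DKO, at 1.92 in log2 against WT (adjusted p = 0.174), with its 4 other probe sets between 0.09 and 0.90. Pcgf6, a subunit of a variant PRC1, read 352 and 301 in WT, 235 and 268 in IRF8KO, and 132 and 105 in IRF4/8DKO (-1.39 in log2 against WT; adjusted p = 0.308). A dimmer Pcgf6 probe set was lowest in IRF8KO instead, with 31.6 and 87.5 in WT, 13.3 and 12.0 in IRF8KO, and 33.65 and 34.3 in IRF4/8DKO. The last one differed by 0.03 in log2 between the knockouts.

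The other genes with the lowest p in their lists were not called either, and some had probe sets of opposite sign. Chd8, a relative of Chd7, read 1374 and 1044 in WT, 2219 and 2248 in IRF8KO, and 2549 and 1915 in IRF4/8DKO, but its 3 dimmer probe sets had the opposite sign in both knockouts. Prmt1, the main arginine methyltransferase, read 2370.4 and 4032 in WT, 631 and 1644 in IRF8KO, and 1855 and 3066 in IRF4/8DKO, with IRF8KO below WT by -1.59 in log2 (limma adjusted p = 0.219). Daxx, a histone chaperone, read 1156 and 1435 in WT, 719.6 and 534 in IRF8KO, and 1222 and 1014 in IRF4/8DKO, so that for both genes IRF8KO was the low genotype. Tbl1x, a subunit of the NCoR complex, was highest in IRF8KO on its representative, with 2039 and 2549 against 1381 and 1208 in WT, and lowest there on a dimmer probe set, with 57.1 and 150.4 against 175 and 388. Hdac5, a class II deacetylase, gave 265 and 267 in WT, 347 and 693 in IRF8KO, and 425 and 993 in IRF4/8DKO, with both knockouts above WT. Brd2, a reader of acetylated histones, gave 1906 and 2099 in WT, 1205 and 1225 in IRF8KO, and 1385 and 1377 in IRF4/8DKO, below WT in both knockouts, while its other probe set overlapped. Between IRF4/8DKO and IRF8KO, Zbtb33, a reader of methylated DNA, differed by -1.10 in log2 (adjusted p = 0.566), Phc3 by -0.98 (adjusted p = 0.585) and the acetyltransferase Kat8 by 1.29 (adjusted p = 0.580). Phf1 and Phf19, accessory subunits of PRC2, Apobec3, a cytidine deaminase, and the demethylase Phf8 stayed above an unadjusted p of 0.05 in all 4 comparisons.

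Genes known as Polycomb targets in blood progenitors, 8 listed and 6 measured, included Meis1 and Hoxa9, homeobox factors of stem and early progenitor cells. Meis1 read 796 and 347 in WT, 120 and 11.4 in IRF8KO, and 26.1 and 26.6 in IRF4/8DKO. All 4 knockout arrays lay below WT, at -3.60 in log2 for the mean of both knockouts, but without passing the test (limma adjusted p = 0.0659). Hoxa9 read 1842 and 1566 in WT, 466 and 430 in IRF8KO, and 615 and 109 in IRF4/8DKO (-2.27; adjusted p = 0.154). A dimmer Hoxa9 probe set lay above WT in IRF8KO, with 117 and 115 against 87.5 and 68.9, and below it in IRF4/8DKO, with 48.2 and 47.2. Over the whole list 3 of 6 genes lay above WT and 3 below in the mean of both knockouts, with Hoxa7 at 0.55, Hoxb4 at 0.26, Hoxa10 at 0.05 and Hoxa5 at -0.81 in log2, and none was called. Meis1 is also 1 of the 7 stem cell markers summed above, and the PRC2 members beside it showed no change that passed the test.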

How the data were processed

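The authors deposited 1 intensity per probe set and array on a linear scale; per the submitters' processing notes it came from dChip 1.3, and no source used here gives the scaling between arrays. Values ran from 0.69 to 16563.28, with array medians between 34.1 and 45.27. Of 45037 probe sets, 34945 had 1 gene symbol in the platform annotation, 932 several and 9160 none. Probe sets above the 40th percentile of their array on at least 2 arrays were kept (29783; 15254 left out), and log2(value + 10.5) was fitted, the pseudocount being the 25th percentile, so fold changes of dim genes are understated. The fit used limma 3.58.1 in R 4.3.3 (lmFit, contrasts, eBayes with trend) on the 3 genotypes together, with 3 residual and 5.84 prior degrees of freedom, a Benjamini-Hochberg adjustment over all kept probe sets and a threshold of 0.05. Each gene was represented by its brightest kept probe set (mean log2 value over the arrays). Separated means that the arrays of 2 genotypes do not overlap. The fit was tested on simulated data. Motifs were counted in Python 3.11.15.

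Values on every array are given for up to 3 members per role with the lowest unadjusted p and for members whose probe sets disagree where 1 has an unadjusted p under 0.05; of other chromatin genes, up to 2 per list with the lowest p. Bmi1, Ezh2, Dnmt1, Jarid2, Hdac1, Rnf2, Smarca2, Cbx7, Cbx8, Phc1 and Rcor1 fall outside that rule and were picked with their values in view. The list of members and all other lists were drawn up with earlier results of these data known. Control probe sets for RNA quality were not analysed here.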

Additional observations from a re-analysis of the deposited data

How the results depend on the processing

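No alternative run brought the representative probe set of a member past the threshold, except that leaving out IRF8KO replicate 1 called Bmi1 in IRF8KO against WT (log2 3.25, limma adjusted p = 0.0102) and in IRF4/8DKO against IRF8KO (-3.49, adjusted p = 0.0182); the number of members called then ranged from 0 to 1. Without that mouse the single IRF8KO array is the one with the high Bmi1 value, and it is assumed to vary like the other genotypes. Leaving out IRF8KO replicate 2 called the second Kdm6b probe set in IRF8KO against WT (-2.38, adjusted p = 0.0469) and in the mean of both knockouts against WT (-1.54, adjusted p = 0.0425). The counts over all probe sets depended strongly on the processing. For IRF8KO against WT (9 called) they were 136 with age as a covariate, 17 with a filter at the 60th percentile, 5 without a filter, 5 without the trend, 2 with only the genotypes compared, 21 and 5 with a lower and a higher pseudocount, 34 with quantile normalization, 37 with median centring, 17 with robust estimation and 2 with sex as a block. Under quantile normalization and median centring 47.1% and 45.9% of these calls were higher, against 33.3%, and centring moved the median of all genes from 0.04 to 0.14. For IRF4/8DKO against WT (89) they were 229 with age, 13 without a filter, 27 without the trend, 476 with only the genotypes compared and 0 with sex. For IRF4/8DKO against IRF8KO (0) age gave 2. For the mean of both knockouts (179) they were 355 with age, 116 with the stricter filter, 70 without a filter, 65 without the trend and 8 with sex. Leaving out 1 array at a time gave 0 to 1090, 0 to 484, 0 to 200 and 0 to 1020 in the 4 comparisons. The cause of these shifts was not tested.

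Same-numbered arrays of different genotypes deviated together with correlations of 0.041, 0.187 and 0.211. With so few arrays per genotype, these values do not show whether the replicate numbers pair the mice. When the replicate number was fitted as a replicate block, 209, 216, 1 and 391 probe sets were called, and 0 members. Without the block, 9, 89, 0 and 179 probe sets were called.

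When arrays were left out, the members' median log2 fold change ranged from -0.221 to 0.055 for IRF4/8DKO against WT (-0.049 with all arrays). For IRF4/8DKO against IRF8KO it ranged from -0.162 to 0.092 (-0.131 with all arrays), so neither median kept its sign. The named differences kept their sign in all alternatives run: Kdm5b in IRF4/8DKO against WT between -1.61 and -0.92, Dnmt3b between -1.48 and -0.57, Ezh1 between 0.87 and 1.38, and Suz12 in IRF8KO against WT between -1.04 and -0.40. Their arrays did not overlap between the genotypes compared, so leaving out 1 array could not reverse a sign. These genes were also named for a low p in the same data, so the kept signs are no added evidence. With 2 mice per genotype, a male and a female each, 1 array can decide a value, as for Bmi1.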

Other observations

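The values in this paragraph were chosen after they were seen. Several members had a probe set with a large gap between the 2 mice of a knockout that their representative did not share. A second Kdm6b probe set read 5.56 and 191 in IRF8KO, against 69.8 and 76.8 in WT, and the dimmest one had replicate 2 higher as well, with 4.33 and 32.5 against 28.6 and 36.4. A second Dot1l probe set read 376 and 1309 in IRF8KO, against 419 and 339.8 in WT. A second Men1 probe set read 77.6 and 390.1 in IRF4/8DKO, against 123 and 106 in WT. A second Tet2 probe set read 23.8 and 82.3 in IRF8KO, against 123 and 109 in WT.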
